A study of Mus musculus with 16 samples.

Results

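The TGF-beta superfamily is a large group of secreted signals that cells use in development, repair and immune control. Its ligands are made as longer precursors, which proprotein convertases such as Furin cut before the mature ligand can act. TGF-beta and BMP ligands then bind paired type I and type II receptor kinases, which phosphorylate Smad proteins that enter the nucleus and regulate target genes. In the brain these signals are known for roles in neuron survival, glial maturation, blood vessel stability and synapse function.

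The 9 genes described here are the ligands Tgfb1, Tgfb2 and Tgfb3, the convertase Furin, the receptors Tgfbr2, Bmpr1a and Bmpr2, and the intracellular mediators Smad3 and Smad7. They were taken by gene symbol from 24062 genes with counts, and all 9 were also found among the 23991 genes with FPKM values. They were picked because Tgfb3 and Furin were higher with ethanol, so the values of these genes in ethanol contrasts are given as descriptions without a test.

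Whole brains with the cerebellum were collected on postnatal day 45 from 16 female C57BL/6J mice, and each mouse gave 1 RNA-seq library. The 4 groups of 4 mice were Water-Water (WW), Nicotine-Water (NW), Water-Ethanol and Nicotine-Ethanol (NE). NW and NE mice drank nicotine at 200 µg/ml for 22 h per day over 10 days, while WW and Water-Ethanol mice had tap water in those bottles. In the remaining hours of the last 4 days, Water-Ethanol and NE mice had 20% v/v ethanol under the drinking-in-the-dark procedure, which limits access to part of the dark phase, and WW and NW mice had water. Sessions lasted 2 h on the earlier days and 4 h on the last day, and brains were taken when that session ended. All mice shared the strain, sex, age and handling, and no gene was altered. A whole brain averages over regions and cell types, so fewer cells of a type and less RNA per cell cannot be told apart.

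Library totals ran from 27100352 to 32880979 counts, with a median of 29448284, and log2 CPM values of library pairs correlated at 0.9937 to 0.996 across genes. CPM, a gene's counts scaled to the size of its library with TMM factors, is the level used here to compare 1 gene between mice. Neuron markers (Snap25, Syt1, Rbfox3, Slc17a7, Gad1 and Gad2) were all present and summed to between 5663 and 6508 CPM. Of 4 blood markers, 3 globin genes (Hbb-bs, Hba-a1 and Hba-a2) were at 0 in every mouse, and Alas2 was at 2.25 to 6.04 CPM. The paper names the globin Hbb-b1 among its ethanol genes, so these zeros are not read as a lack of blood. The 6 pituitary markers summed to 14.2 CPM in NW replicate 3 and to at most 2.15 CPM elsewhere. In 2 libraries the cerebellum markers stood apart: Gabra6, a receptor subunit of cerebellar granule cells, was at 36.2 CPM in WW replicate 4 and 55.9 CPM in NW replicate 3, against 116 to 152 CPM in the other mice. NW replicate 3 also held 40561 CPM of Rn45s, a ribosomal RNA precursor gene. The next highest were NW replicate 1 at 13408 CPM and NW replicate 2 at 7353 CPM, against 2777 to 6121 CPM in the remaining mice. High Rn45s therefore went with the NW group, and its part in the NW differences was not tested.

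Furin lies on the reverse strand of chromosome 7 and has more than 1 annotated start site. Of the 2 members that were higher with ethanol, it is the one whose promoter could be read. The 250 bases before each of its 2 RefSeq starts, from the promoter table on GRCm38.p6, are printed to show how different these 2 upstream regions are. The upstream start covers chr7:80405437-80405686 and the downstream start covers chr7:80402813-80403062, both read 5′ to 3′ on the reverse strand. Capitals mark CAGAC, the short element bound by Smad3 and Smad4, and GGGCGG, the GC box, each searched on both strands (as GTCTG and CCGCCC on the other), with no overlap between the marked matches.
Furin upstream start: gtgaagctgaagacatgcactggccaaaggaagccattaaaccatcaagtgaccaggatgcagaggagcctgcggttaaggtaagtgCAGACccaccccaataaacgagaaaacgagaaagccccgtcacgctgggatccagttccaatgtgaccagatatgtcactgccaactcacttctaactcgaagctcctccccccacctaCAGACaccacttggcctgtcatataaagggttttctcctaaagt
Furin downstream start: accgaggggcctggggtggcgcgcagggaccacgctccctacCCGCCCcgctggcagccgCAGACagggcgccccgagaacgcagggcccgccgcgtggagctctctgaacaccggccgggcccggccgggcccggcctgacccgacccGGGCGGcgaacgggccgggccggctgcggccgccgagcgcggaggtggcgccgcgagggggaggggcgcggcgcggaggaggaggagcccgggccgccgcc
The upstream region held 2 CAGAC matches, at 163 and 44 bases before the start, no GC box, and 50.4% G and C. The downstream region held 1 CAGAC match, at 190 bases before the start, 2 GC boxes, at 208 and 101 bases, and 83.2% G and C. Among 32851 promoters cut to the same 250 bases, 42.19% held CAGAC and 32.74% held the GC box, so either motif was common. Among the other members with a promoter read here, CAGAC was found before Tgfb2, with 2 matches, and Tgfbr2, with 1, but not before Tgfb1, Smad3, Bmpr1a or Bmpr2. The counts were summed over the whole gene, so the start from which Furin was transcribed is not resolved in these values.

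Levels of different genes were compared in FPKM, which divides by transcript length. Over the 16 mice, Bmpr2, the type II BMP receptor, had the highest mean FPKM of the 9 genes at 30.3 ± 2.82 (SD, n = 16). Bmpr1a, a type I BMP receptor, followed at 19.2 FPKM, Smad3, which carries the TGF-beta signal, at 14.9 FPKM and Furin at 10.9 FPKM. These are moderate levels, and Bmpr2 ranked above 87.9% of all genes with FPKM values. Smad7, the inhibitory Smad, was at 7.14 FPKM, Tgfb3 at 5.96 FPKM and Tgfbr2, the type II TGF-beta receptor, at 5.55 FPKM. Tgfb2 at 4.45 FPKM and Tgfb1 at 2.47 FPKM were the lowest, and Tgfb1 ranked above 51.1% of all genes. The ranges over 16 mice overlapped for the neighbours Smad3 and Furin, Smad7 and Tgfb3, Tgfb3 and Tgfbr2, and Tgfbr2 and Tgfb2. The ranges of the other neighbours did not overlap. Within each single mouse, Smad3 was above Furin and Tgfbr2 was above Tgfb2. The order of Smad7 and Tgfb3, and that of Tgfb3 and Tgfbr2, differed between mice and is not firm.

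**Figure D1:**
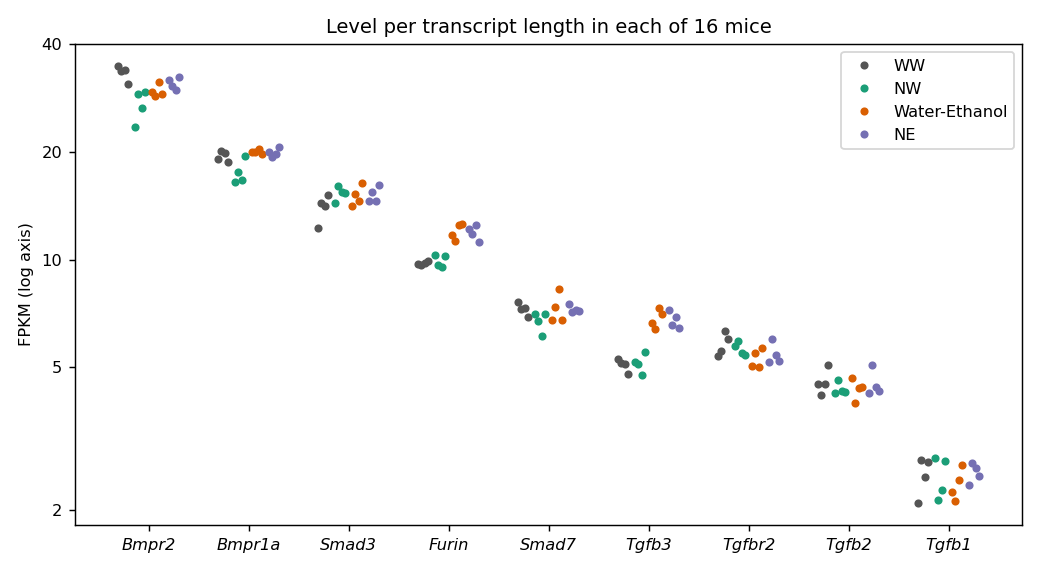
FPKM (log axis) of the 9 genes in each of the 16 mice, ordered by mean and coloured by group. Bmpr2 at 23.5 to 34.7 FPKM and Bmpr1a at 16.5 to 20.6 FPKM lie above the rest, and Tgfb1 at 2.09 to 2.79 FPKM lies below them.

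Tgfb3 encodes one of the 3 TGF-beta ligands and lies on the reverse strand at chr12:86056743-86079041 in the authors' GRCm38 annotation, with 7 exons and 3385 exon bases. Small microRNA genes sit within its introns and share no exon base with it. Its levels in WW replicates 1 to 4 were 16.7, 16.4, 16.2 and 15.1 CPM. In NW they were 16.3, 16.6, 15.2 and 17.7 CPM. These 8 mice without ethanol form a single band between 15.1 and 17.7 CPM.

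With ethanol, Tgfb3 was at 20.9, 19.9, 23.1 and 22.5 CPM in the 4 Water-Ethanol mice. In the 4 NE mice it was at 23.0, 21.02, 21.6 and 20.6 CPM. Each of the 8 ethanol mice was above each of the 8 other mice. Group means were 16.1 ± 0.712 CPM in WW, 16.4 ± 1.01 CPM in NW, 21.6 ± 1.45 CPM in Water-Ethanol and, in NE, 21.5 ± 1.05 CPM (SD, n = 4 each). The log2 difference was 0.42 (SE 0.0613) for Water-Ethanol against WW, which is 1.34-fold, and 0.42 (SE 0.0573) for NE against WW. It was 0.39 (SE 0.0634) for NE against NW.

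Furin encodes the convertase that cleaves many precursors at paired basic residues, among them TGF-beta and BMP ligands. It spans chr7:80389194-80405431 on the reverse strand, with 17 exons, and the nearest gene, Fes, lies 1248 bases away. Its levels in WW were 39.3, 39.4, 39.7 and 39.5 CPM, and in NW 41.2, 39.4, 39.5 and 41.4 CPM. The 8 mice without ethanol lay between 39.3 and 41.4 CPM. The WW spread of 0.148 CPM (SD) was smaller than the 1.17 CPM that counting error alone gives at 1075 to 1211 counts, so it understates the error.

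Furin was at 47.2, 45.0, 50.4 and 50.2 CPM in Water-Ethanol and at 49.3, 47.6, 50.5 and 45.4 CPM in NE. Again no ethanol mouse overlapped with a mouse that had none. Group means were 39.5 ± 0.148 CPM in WW, 40.4 ± 1.06 CPM in NW, 48.2 ± 2.58 CPM in Water-Ethanol and 48.2 ± 2.18 CPM in NE (SD over 4 mice). The log2 difference was 0.29 (SE 0.0453) for Water-Ethanol against WW, which is 1.22-fold, 0.29 (SE 0.0436) for NE against WW and 0.26 (SE 0.0493) for NE against NW. Water-Ethanol and NE share the WW mice as controls, so these contrasts are not independent of each other.

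**Figure D2:**
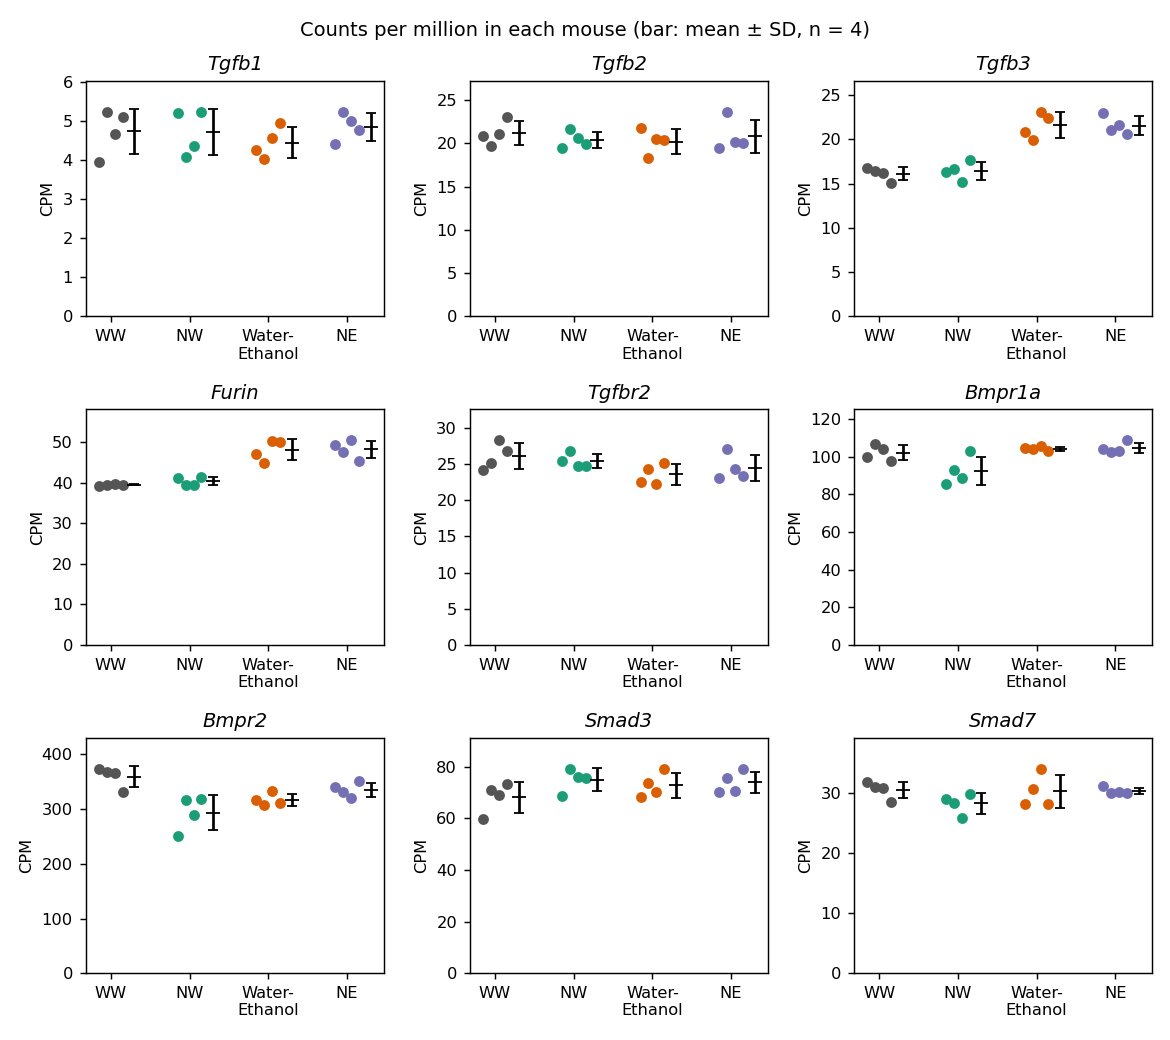
CPM of each of the 9 genes in each mouse, by group, with the mean and SD (n = 4) beside the points and every axis from 0. Tgfb3 and Furin are higher in all 8 Water-Ethanol and NE mice than in all 8 WW and NW mice, while Bmpr2 is lower in the 4 NW mice (250 to 319 CPM) than in the 4 WW mice (332 to 374 CPM).

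In Water-Ethanol against WW and in NE against WW the members without overlap were Tgfb3 and Furin, 2 of 9, against 10.8% and 10.7% of all genes. In NE against NW 4 members had higher levels without overlap, namely Tgfb3, Furin, Bmpr2 and Smad7, against 4.13% of genes that were higher. The separation of all 8 ethanol mice from all 8 others, seen for Tgfb3 and Furin, held upwards for 0.443% of genes. Nothing is read from these counts, since the genes were picked on these contrasts.

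Transcript GC content moved with the contrasts to a small degree. Furin transcripts have 55.9% GC and fall in the highest quintile of tested genes, whose median log2 difference was 0.04 in Water-Ethanol against WW and 0.07 in NE against WW. Tgfb3, at 53.0% GC, falls in the fourth quintile, with medians of 0.02 and 0.03. With a GC offset, the Furin difference was 0.27 in Water-Ethanol and 0.24 in NE, and that of Tgfb3 was 0.41 and 0.39.

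Cell type marker lists are given beside these values, and few of their genes were called. Over all genes, only 0.457% were called in Water-Ethanol against WW and 0.313% in NE against WW. The counts of called markers in such short lists are therefore not read as a result about cell types. The summed level of 6 mural cell markers ran from 189 to 201 CPM in WW, from 170 to 178 CPM in Water-Ethanol and from 170 to 179 CPM in NE, with no overlap between WW and either ethanol group, and 0 of the 6 genes were called. All 6 fibroblast markers had log2 differences below 0 in Water-Ethanol and in NE, none of them called, with sums of 114 to 205 CPM in WW, 95.3 to 130 CPM in Water-Ethanol and 104 to 114 CPM in NE. The 6 microglial markers all had lower means with ethanol and summed to 278 to 352 CPM in WW, 270 to 288 CPM in Water-Ethanol and 246 to 300 CPM in NE. All 6 astrocyte and all 6 oligodendrocyte markers likewise had log2 differences below 0 in Water-Ethanol and NE, none of them called. Astrocyte sums were 5283 to 5708 CPM in WW, 5031 to 5190 CPM in Water-Ethanol and 5007 to 5366 CPM in NE. They did not overlap between WW and Water-Ethanol. For choroid plexus, 1 of 6 markers was called higher in Water-Ethanol and in NE, with sums of 587 to 745 CPM in WW, 640 to 771 CPM in Water-Ethanol and 654 to 749 CPM in NE. Of 6 endothelial markers 1 was called lower in NE, with sums of 264 to 274 CPM in WW, 234 to 256 CPM in Water-Ethanol and 239 to 265 CPM in NE. The endothelial sums of WW and Water-Ethanol did not overlap either. All 4 border macrophage markers had differences below 0, with none called. The 6 cerebellum markers depended on WW replicate 4. With it, all 6 had log2 differences above 0 in both ethanol groups, none called, while without it 1 of 6 was above 0 in Water-Ethanol and 2 of 6 in NE, and their sums were 917 to 1060 CPM in the other WW mice, 897 to 1001 CPM in Water-Ethanol and 898 to 997 CPM in NE. The 5 olfactory bulb markers summed to 81.4 to 83.7 CPM in WW, 39.2 to 86.7 CPM in Water-Ethanol and 44.1 to 77.5 CPM in NE. No marker of these lists was at 0 in all mice, and the part of these differences in the Tgfb3 and Furin values was not tested. Without WW replicate 4, the genes called lower in Water-Ethanol were 2 mural, 1 fibroblast, 1 oligodendrocyte and 1 neuron marker. The share of all genes called in that fit is not given, so nothing about these cell types is read from the count. Without WW replicate 4 the Tgfb3 difference was 0.40 in Water-Ethanol and 0.39 in NE, and that of Furin was 0.29 in both.

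The other ligands did not follow Tgfb3. Tgfb1, the ligand best known from immune cells, is at chr7:25687002-25704996 and held only 108 to 171 counts per library. It was at 4.74 ± 0.583 CPM in WW, 4.72 ± 0.589 CPM in NW, 4.45 ± 0.402 CPM in Water-Ethanol and 4.85 ± 0.353 CPM in NE (SD over 4 mice), and all 4 groups overlapped. Tgfb2, at chr1:186623186-186705992, was at 21.2 ± 1.41 CPM in WW, 20.4 ± 0.961 CPM in NW, 20.2 ± 1.44 CPM in Water-Ethanol and 20.8 ± 1.90 CPM in NE, again with overlap of all groups. The log2 differences with ethanol were between -0.09 and 0.04 for both ligands in Water-Ethanol against WW, NE against WW and NE against NW, and their standard errors of 0.0662 to 0.113 were of that size.

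The make-up of the 3 ligand messages can be read from FPKM, which is per length. Tgfb3 made up 41.9 ± 2.69% of their summed FPKM in WW and 42.9 ± 0.945% in NW, but 50.5 ± 1.31% in Water-Ethanol and 49.0 ± 2.72% in NE (SD over 4 mice). The lowest share in an ethanol mouse was 45.6% and the highest in any other mouse was 44.5%, so the groups did not overlap. Tgfb2 made up 37.5% in WW and 32.1% in Water-Ethanol, and Tgfb1 made up 20.6% in WW and 17.4% in Water-Ethanol. These shares follow from the Tgfb3 difference that chose the genes and are a description only.

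In the nicotine groups Tgfb3 and Furin were close to their levels in the groups without nicotine. For Tgfb3 the log2 difference of NW against WW was 0.02, with an interval of -0.11 to 0.16 (95%, edgeR quasi-likelihood test, adjusted p = 0.938). For Furin it was 0.03, with an interval of -0.06 to 0.13 (edgeR, adjusted p = 0.872). In mice that drank ethanol, NE against Water-Ethanol, the differences were -0.0046 for Tgfb3 (interval -0.13 to 0.12, edgeR adjusted p = 0.993) and -0.0011 for Furin (interval -0.11 to 0.10, edgeR adjusted p = 0.998). With 4 mice a group, differences within these intervals were not excluded. The interaction, which asks whether the ethanol difference depended on nicotine, was -0.03 for Tgfb3 (interval -0.21 to 0.15, edgeR adjusted p = 0.976) and -0.03 for Furin (interval -0.16 to 0.10, edgeR adjusted p = 0.964). The paper reports that NE mice drank more ethanol than Water-Ethanol mice and had higher blood ethanol. NE against Water-Ethanol and the interaction therefore do not hold ethanol intake equal. Nicotine bottles were also absent during the last 4 h, so withdrawal cannot be told apart from nicotine intake.

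Among the receptors, Bmpr2 differed most with nicotine alone. The gene spans chr1:59764279-59878081 on the forward strand, with 13 exons and 11087 exon bases, and a microRNA gene within it shares no exon base. It was at 374, 368, 365 and 332 CPM in WW and at 250, 317, 290 and 319 CPM in NW. All 4 NW mice were below all 4 WW mice, the closest pair being 319 and 332 CPM. In Water-Ethanol it was at 316, 308, 333 and 312 CPM and in NE at 340, 332, 320 and 351 CPM. Both of these groups overlapped with the WW range, but only through WW replicate 4 at 332 CPM, the library low in cerebellum markers. Every Water-Ethanol and NE mouse was below the other WW mice. As a description, the log2 difference from WW was -0.18 (SE 0.0437) in Water-Ethanol and -0.10 (SE 0.0448) in NE.

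For Bmpr2 the log2 difference of NW against WW was -0.29 (SE 0.0728, interval -0.45 to -0.13), which is 0.816-fold. The edgeR quasi-likelihood test gave an adjusted p of 0.253 over 15344 genes, so the difference did not pass. An exact two-sided permutation test of log2 CPM gave p = 0.0286, the smallest p that 4 against 4 mice allow. DESeq2 gave an adjusted p of 0.0263 and an edgeR fit of all 16 mice gave 0.0348, so these 2 methods called it, and over all alternatives the adjusted p ran from 0.0263 to 0.691. Without WW replicate 4 and NW replicate 3 the difference was -0.32. Without NW replicate 1, the mouse lowest in Bmpr2 and second highest in Rn45s, it was -0.22, the smallest with 1 mouse left out. Bmpr2 transcripts have 41.0% GC, in the lowest quintile, whose median log2 difference in NW against WW was -0.09, and with a GC offset the difference was -0.20 (edgeR, adjusted p = 0.529).

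Bmpr1a, at chr14:34411068-34502546, was at 100, 107, 104 and 97.6 CPM in WW and at 85.4, 93.0, 88.9 and 103 CPM in NW. Of the NW mice 3 were below the whole WW range and 1 was within it. The log2 difference was -0.14 (SE 0.0579, edgeR adjusted p = 0.539, exact permutation p = 0.0857). Without NW replicate 1, the mouse lowest in Bmpr1a, it was -0.11. Bmpr1a transcripts, at 41.3% GC, fall in the same quintile as those of Bmpr2, and with the GC offset the difference was -0.0527 (edgeR, adjusted p = 0.997). Water-Ethanol and NE means were 104 and 105 CPM, against 102 CPM in WW.

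In NW against WW none of the 9 genes passed edgeR's test, as for all 15344 genes (0%). At an unadjusted p under 0.05 there were 2, Bmpr1a and Bmpr2, against 8.44% of all genes. DESeq2 called 1 and limma on FPKM called 0, with the share of all genes given for neither. Groups that did not overlap were found for 1 member, Bmpr2, lower in NW, against 4.06% of genes that were lower without overlap. Smad3 and Smad7 had log2 differences of 0.13 (edgeR adjusted p = 0.621) and -0.11 (edgeR adjusted p = 0.641), the latter -0.17 with the GC offset.

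In NE against Water-Ethanol 0 of 9 passed (0% of 15319 genes), 0 had an unadjusted p under 0.05 against 5.80% of all genes, and DESeq2 called 0. Bmpr2 was closest, at 0.08 (SE 0.0377, edgeR adjusted p = 0.834, exact permutation p = 0.0857), and Tgfb1 was at 0.12 (SE 0.0996). For nicotine averaged over ethanol, 0 of 9 passed (0% of 15592 genes) and 2 had an unadjusted p under 0.05 against 10.3% of all genes, Bmpr2 at -0.11 (SE 0.0439, edgeR adjusted p = 0.406) and Bmpr1a at -0.07 (SE 0.0339, edgeR adjusted p = 0.486). With the GC offset these values were -0.0514 for Bmpr2 and -0.0174 for Bmpr1a. DESeq2 called 0 there too.

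The interaction was largest for Bmpr2, whose mean was below that of WW in NW and in Water-Ethanol and intermediate in NE. It came to 0.37 on the log2 scale (SE 0.0878, interval 0.19 to 0.56), with an adjusted p of 0.577 in the edgeR fit over 15592 genes. For Bmpr1a it was 0.15 (SE 0.0677, edgeR adjusted p = 0.722). In all, 0 of 9 passed (0% of genes), 2 had an unadjusted p under 0.05 against 6.76% of all genes, and DESeq2 called 0. The lowest GC quintile had a median interaction of 0.07, and with a GC offset the value was 0.30 for Bmpr2 and 0.0732 for Bmpr1a.

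**Figure D3:**
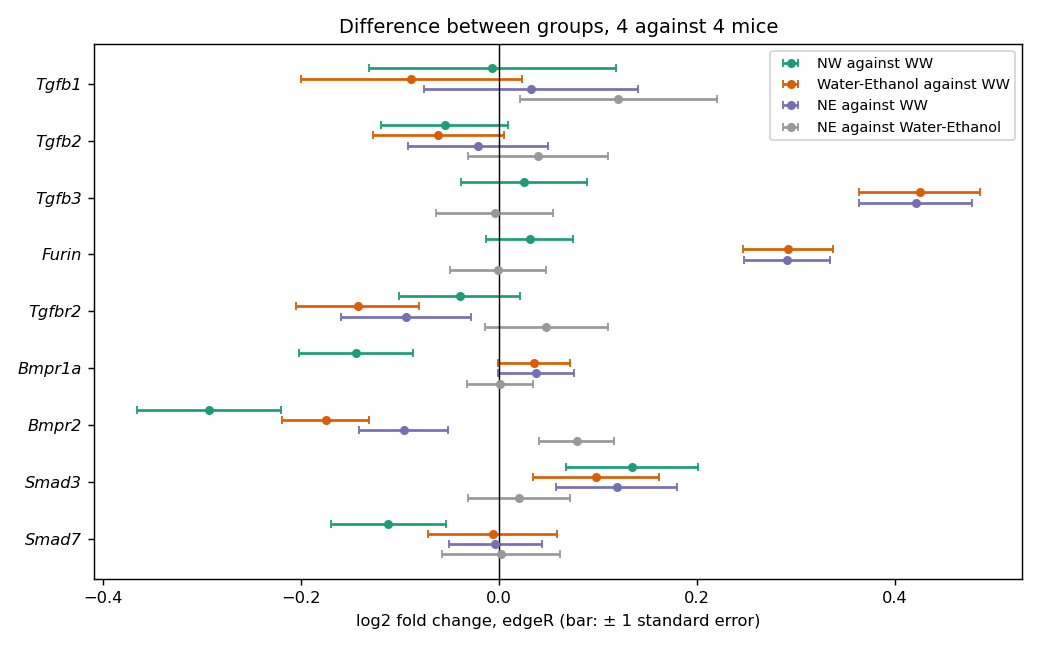
log2 fold change with its standard error from edgeR for the 9 genes in 4 comparisons of 4 against 4 mice. Tgfb3 (0.42 and 0.42) and Furin (0.29 and 0.29) are displaced to the right in both ethanol groups against WW and lie at about 0 for NW against WW and NE against Water-Ethanol, and Bmpr2 lies furthest to the left in NW (-0.29).

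Tgfbr2, which binds the TGF-beta ligands first and recruits the type I receptor, is at chr9:116087695-116175363. It was at 24.2, 25.1, 28.3 and 26.8 CPM in WW, 22.5, 24.4, 22.3 and 25.2 CPM in Water-Ethanol and 23.1, 27.1, 24.3 and 23.4 CPM in NE. The ethanol groups overlapped with WW. The log2 differences were -0.14 (SE 0.0625) in Water-Ethanol and -0.09 (SE 0.0657) in NE, opposite in sign to those of Tgfb3. In NW it was at 24.7 to 26.8 CPM, a log2 difference of -0.04 from WW.

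Smad3, at chr9:63646767-63757994, ranged from 59.6 to 73.2 CPM in WW, 68.8 to 79.2 CPM in NW, 68.2 to 79.1 CPM in Water-Ethanol and 70.3 to 79.1 CPM in NE. WW replicate 1 was the lowest of all 16 mice, and the 4 groups overlapped. Smad7, at chr18:75367365-75395934, ranged from 28.6 to 31.9 CPM in WW, 25.9 to 29.9 CPM in NW, 28.2 to 34.1 CPM in Water-Ethanol and 30.1 to 31.2 CPM in NE. Its mean was 30.6 CPM in WW, 30.3 CPM in Water-Ethanol and 30.4 CPM in NE with overlap of these groups, and the gene is known as a target of TGF-beta signalling. Its 4 NE mice were above its 4 NW mice, where the closest values were 30.1 and 29.9 CPM.

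Among mice of the same group, which the choice of genes did not use, the levels of Tgfb3 and Furin were compared. After group means were removed, Pearson's r was 0.708 and Spearman's rho 0.674 over 16 mice (permutation within groups, p = 0.0137 and p = 0.0283). Over the 36 pairs of members the Benjamini-Hochberg adjusted values of this permutation test were 0.382 and 0.330, so the relation did not pass. When the 2 mice with the most extreme Tgfb3 deviations from their group mean were left out, r was 0.602. The points share libraries, so depth and composition enter both axes.

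Bmpr1a and Bmpr2 gave the highest correlation of the 36 pairs, with r = 0.786 and rho = 0.782 (permutation p = 0.0230 and p = 0.00233, adjusted 0.382 and 0.0839). When the 2 mice with the most extreme Bmpr1a deviations from their group mean were left out, r was 0.616. Tgfb3 and Smad7 gave r = 0.634 and rho = 0.588 (permutation p = 0.0369 and p = 0.0600, adjusted 0.382 and 0.330). No pair passed after adjustment.

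**Figure D4:**
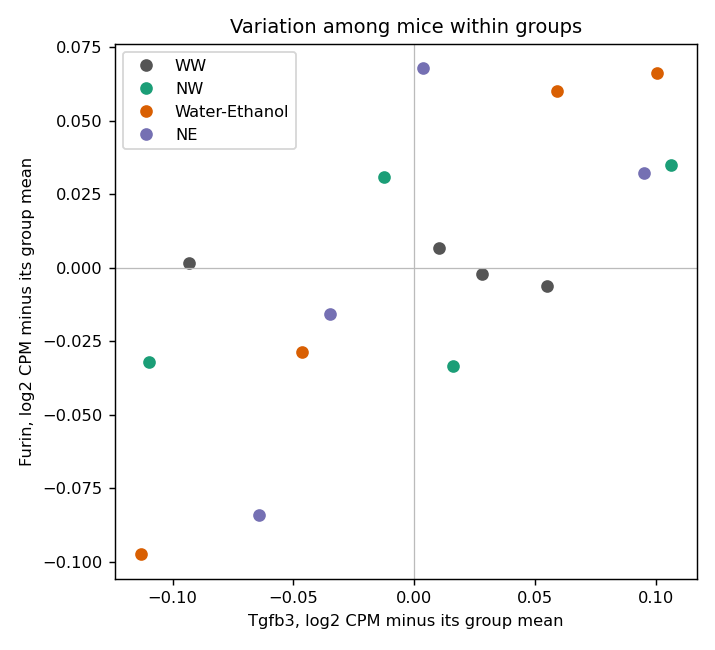
log2 CPM of Tgfb3 (x) and Furin (y) in each of the 16 mice after the mean of its group was subtracted, coloured by group. The Water-Ethanol and NE mice spread along the diagonal, the 4 WW points lie flat because Furin hardly varied among them, and r over all 16 mice is 0.708.

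Over all 16 mice with group differences left in, the gene most like Tgfb3 among 15592 was Furin, and the reverse also held, with r = 0.968. The next for Tgfb3 were Zfp280b (0.937), Car15 (0.932), Slc25a29 (0.922) and Zfp609 (0.917). The next for Furin were Zswim4 (0.950), Zdhhc18 (0.943), Irf2 (0.938) and Med13l (0.934). These correlations are across 16 mice in 4 groups and include the group differences that chose the genes.

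Around the 9 genes, 99 other genes of the pathway were listed by role, of which 90 to 92 were tested in a comparison. In the ethanol effect over all 16 mice, a comparison added after the data were seen, 6 of 92 passed edgeR's test, 5 higher and 1 lower. That is 6.52%, against 4.50% of all genes. The median log2 difference of the 92 was 0.03, against 0.00208 over all genes and single values ran from -0.37 to 0.53. At an unadjusted p under 0.05 there were 25, against 22.9% of all genes. With 1 mouse left out, the count was 1 without NW replicate 2, 2 without WW replicate 2 or 3, Water-Ethanol replicate 3 or NE replicate 1 or 3, 3 without Water-Ethanol replicate 1, and up to 8 without NW replicate 4. Twsg1 was called in each of these fits, for which the share of all genes called is not given.

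Of 14 other superfamily ligands tested, 1 rose, Gdf11, an activin-like ligand that restrains neurogenesis. Its mean was 12.3 CPM in WW, 12.6 CPM in NW, 13.2 CPM in Water-Ethanol and 14.6 CPM in NE, a log2 difference of 0.16 (SE 0.0392, edgeR adjusted p = 0.0262). Of the 15 genes of latency and activation none passed. Bmp1, a protease that cuts procollagens and releases latent TGF-beta, was at 0.48 in Water-Ethanol (SE 0.105, edgeR adjusted p = 0.0632) and 0.34 in NE (adjusted p = 0.242). Ltbp3, which holds latent TGF-beta in the matrix, was at 0.26 and 0.22, and its relative Ltbp1 was at -0.12 and -0.15.

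None of the 8 other proprotein convertases passed in the ethanol effect. The value closest to the threshold was that of Pcsk5, which, like Furin, cuts at paired basic residues. It was at 11.6 to 12.9 CPM in WW, 9.33 to 10.7 CPM in Water-Ethanol and 9.93 to 11.1 CPM in NE, without overlap between WW and either ethanol group. The log2 differences were -0.28 (SE 0.0709, edgeR adjusted p = 0.0850) in Water-Ethanol and -0.19 (SE 0.0664, edgeR adjusted p = 0.174) in NE, so its sign was opposite to that of Furin and it was not called.

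Of the 16 other receptors and co-receptors none passed. Bmpr1b, a second type I BMP receptor, was at -0.15 in Water-Ethanol and -0.16 in NE, both without overlap with WW. Tgfbr1, the type I partner of Tgfbr2, was at -0.06 and -0.11, and Acvr1 was at -0.07 and -0.04. Of the 14 other Smads and regulators 2 rose, Smad5, which carries BMP signals, by 0.12 (SE 0.0306, edgeR adjusted p = 0.0265) and Smurf1, a ubiquitin ligase for Smads, by 0.14 (SE 0.0344, edgeR adjusted p = 0.0242). Smad1, Smad2 and Smad4 were between -0.05 and 0.04 in both Water-Ethanol and NE against WW, and the low-count inhibitory Smad6 was at 0.18 and 0.36 with standard errors of 0.177 and 0.188.

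Of the 12 extracellular inhibitors 1 rose, Twsg1, a BMP-binding protein, by 0.15 (SE 0.0295, edgeR adjusted p = 0.0101), and it was the listed gene with the smallest p. Others had values below 0 in Water-Ethanol against WW without overlap. Chrdl1, a chordin-like BMP antagonist made by astrocytes, was at -0.26 (SE 0.0634, edgeR adjusted p = 0.0799). Grem1 and Fst, antagonists of BMPs and activins, were at -0.47 and -0.45, at means under 3 CPM. Of the 13 target genes, Id1, a BMP-induced inhibitor of differentiation, rose by 0.25 (SE 0.0661, edgeR adjusted p = 0.0385) and its relative Id2 fell by 0.15 (SE 0.0376, edgeR adjusted p = 0.0311). Id3 was at 0.04 in Water-Ethanol and 0.12 in NE.

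**Figure D5:**
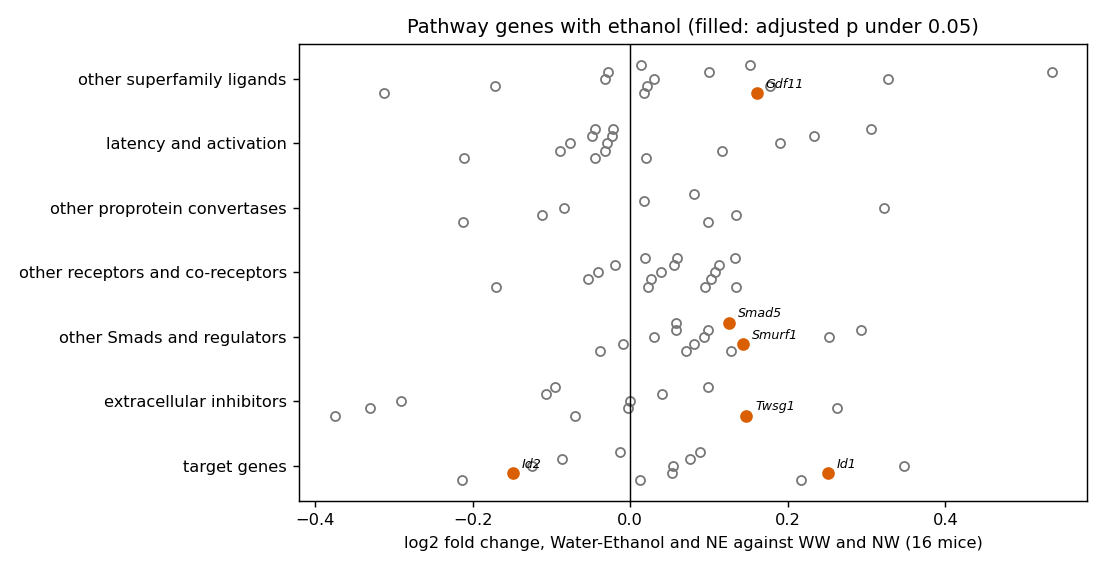
log2 fold change of the 92 tested pathway genes in the ethanol effect over 16 mice, in rows by role, with filled points for adjusted p under 0.05. The 6 filled points are Gdf11, Smad5, Smurf1, Twsg1 and Id1 to the right of 0 and Id2 to the left, between -0.15 and 0.25.

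In the fits of single groups against WW fewer listed genes passed. In Water-Ethanol against WW 0 of 90 passed edgeR's test, against 0.457% of all genes. At an unadjusted p under 0.05 there were 18, against 19.3% of all genes, and DESeq2 called 7. Without WW replicate 4, the library low in cerebellum markers, 6 passed, and without WW replicate 1 there was 1. In NE against WW 1 of 91 passed, Klf10, an early TGF-beta-induced repressor, which fell by 0.36 (SE 0.0650, edgeR adjusted p = 0.0453), against 0.313% of all genes. Klf10 was at 30.3 to 34.5 CPM in WW and 22.7 to 27.01 CPM in NE, and at 22.6 to 28.8 CPM in Water-Ethanol and 22.8 to 33.5 CPM in NW. Its call in NE was lost without WW replicate 1, 2 or 3 or any single NE mouse, with the GC offset, with limma and in the fit of all 16 mice, with adjusted p up to 0.203. Without WW replicate 4 the count was 3, and DESeq2 called 5. For DESeq2 and the fits with a mouse left out, the share of all genes called is not given. Those counts are therefore not read as a result about the listed genes.

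Among listed genes that did not overlap in NE against WW, 6 were higher and 6 lower, out of 91, against 10.7% of all genes without overlap. The largest after Klf10 were Gdf11 at 0.25, Pcsk5 at -0.19, Id2 at -0.18, Smurf1 at 0.18 and Twsg1 at 0.16. In Water-Ethanol against WW, 8 were lower and 0 higher without overlap, out of 90, against 5.80% of all genes that were lower and 10.8% in either direction. The 6 largest were Grem1, Fst, Klf10 at -0.34, Pcsk5, Chrdl1 and Id2 at -0.20.

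With nicotine the listed genes gave no calls. In NW against WW 0 of 91 passed edgeR's test (0% of all genes), 12 had an unadjusted p under 0.05 against 8.44% of all genes, and DESeq2 called 0. In this comparison 2 did not overlap, Chrdl1, lower at -0.23 (SE 0.0623, edgeR adjusted p = 0.303), and the ligand Bmp6, higher at 0.12 (SE 0.0687, edgeR adjusted p = 0.671). Tgfbr1 and Bmpr1b were at -0.22 and -0.20, in the same direction as Bmpr2 and Bmpr1a but with overlap. In NE against Water-Ethanol 0 of 92 passed, 7 had an unadjusted p under 0.05 against 5.80% of all genes, and DESeq2 called 0.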

How the data were processed

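RNA-seq was measured in 16 mouse brains, 4 per group, with groups taken from the labels. The authors trimmed reads with Trimmomatic 0.32, aligned them with TopHat2 to GRCm38 (mm10), and deposited whole-number read counts per gene without normalization. The counting program and its use of strand are not given in the sources used here, and the labels and the paper name different TruSeq kits, so antisense reads cannot be told apart. No exon base of the 9 genes was shared with another annotated gene. The authors also deposited FPKM values made with Cufflinks and its companion programs, relative to transcript length and library size, so that read depth is lost.

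Counts were tested with edgeR 4.0.16 in R 4.3.3 (glmQLFit and glmQLFTest, TMM, filterByExpr, Benjamini-Hochberg over all genes tested, threshold 0.05). Each treatment was set against WW, and NE also against Water-Ethanol and NW, using the 8 mice concerned. A model of all 16 mice gave the nicotine effect, the ethanol effect and the interaction. Intervals are at 95%. Standard errors were derived from the F statistic and the log2 fold change. Single members were also compared by exact permutation tests, and pairs of members by correlation of log2 CPM (prior count 1) with 100000 permutations within groups. Alternatives were RLE factors, DESeq2 1.42.0, no filter, at least 10 counts in every library, limma 3.58.1 on log2(FPKM + 1) and log2(FPKM + 0.1) for genes with an FPKM of at least 1 in as many mice as the smallest group held, fits of all 16 mice, a cerebellum covariate and leaving out each mouse. A GC offset, the removal of WW replicate 4 with NW replicate 3, or of WW replicate 4 alone for the marker lists, and the ethanol effect on listed genes were added after the data were seen. GC content was available for 94.4% of genes, from GENCODE transcripts.

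The 9 members, the pathway list and the marker lists were chosen with earlier results of these data known. Named pathway genes are those that passed in a comparison, the 6 with the largest log2 difference among those without overlap in each of NW, Water-Ethanol and NE against WW, and a set of examples. Replicates are separate mice, numbered in accession order. The tests were also run on simulated counts with known changes. With 4 mice a group, 91% to 98% of changes of 0.5 on the log2 scale were recovered in NW, Water-Ethanol and NE against WW and NE against Water-Ethanol. In the interaction 86% were recovered. Over the comparisons simulated, 7 to 13 of 197 to 211 calls were false. Counts were drawn for each gene separately, without library-wide traits such as low cerebellum markers or a GC trend. The shares recovered may therefore be lower in the real libraries. Changes smaller than 0.5, which include all member differences, were not simulated, nor were changes in genes as low as Tgfb1. Promoter sequences come from RefSeq (GRCm38.p6), where 7 members were matched and used. No promoter of Tgfb3 or Smad7 was read. Plots were drawn with matplotlib 3.10.9. One gene that the rule for named genes covers is not reported here.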

Additional observations from a re-analysis of the deposited data

How the results depend on the processing

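In Water-Ethanol against WW the Tgfb3 difference ran from 0.37 to 0.46 over the alternatives and that of Furin from 0.27 to 0.32. Their direction was set by the choice of genes and by groups without overlap, so a kept direction is no support. Of the members in NW against WW, 1 passed with DESeq2 and 1 in the fit of all 16 mice, Bmpr2 in both, while all fits that left out 1 mouse gave 0. In NE against Water-Ethanol, the nicotine effect and the interaction the count stayed 0 under the alternatives run. Listed genes in Water-Ethanol against WW numbered 7 with DESeq2, 2 with no low-count filter and 0 to 6 with 1 mouse left out. In NE against WW they numbered 5 with DESeq2, 0 with limma at either pseudocount, with the GC offset and in the fit of all 16 mice, and 0 to 3 with 1 mouse left out. In the ethanol effect they numbered 10 with the cerebellum covariate and 1 to 8 with 1 mouse left out. The share of all genes called under each alternative is not given, so these counts are not read as a result about the genes counted. The cause of these moves was not tested.

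Values near 0 changed sign. With the GC offset, NW against WW was -0.0151 for Tgfb3 and -0.0240 for Furin, and the Furin interaction was 0.00284. Furin in NE against Water-Ethanol was 0.000164 in the fit of all 16 mice, and Tgfb1 in NW against WW was 0.0677 without WW replicate 4 and NW replicate 3. With 1 mouse left out, NW against WW ran from -0.0805 to 0.0588 for Tgfb1, from -0.0116 to 0.0494 for Tgfb3 and from -0.0712 to 0.000690 for Tgfbr2. NE against Water-Ethanol ran from -0.0430 to 0.0285 for Tgfb3 and from -0.0346 to 0.0257 for Furin, and the Tgfb3 interaction from -0.0674 to 0.00424. No paired analysis was possible because the mouse numbers in the labels differ between groups. Depth limits Tgfb1 most, at 108 to 171 counts per library, and 4 mice a group limit all values.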
